A study of Capra hircus with 40 samples.

Results

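Ovaries of 4-month-old Jining gray goats were compared with ovaries of goats aged 1 day, over every mature microRNA (miRNA) in a table of read counts. Each age held 5 libraries, so 10 of the 40 libraries of the series entered the comparison. They were taken by their labels, and no measured value was used in the choice. All animals were females of 1 breed (Capra hircus) kept on a common farm, without any treatment or genetic change named in the labels. The series followed sexual maturation in ovary and uterus at day 1 and at months 2, 4 and 6, with 5 separately numbered individuals in each of the 8 groups. Total RNA came from whole tissue. The labels do not say which part of the ovary was taken or whether animals were pooled, so the p-values measure the spread between these libraries.

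A miRNA is cut from a hairpin transcript and guides silencing complexes to messenger RNAs that pair with its seed. Each hairpin can yield a 5p and a 3p strand, and usually a single strand is kept. Many hairpins lie in clusters that are transcribed together. The ovary of a newborn goat already holds primordial follicles, and growing follicles with their granulosa and theca cells build up as puberty approaches. The let-7 family is known as a marker of developmental timing, since the stem cell protein LIN28 blocks its maturation. The miRNAs of the imprinted DLK1-DIO3 domain are read from the maternal chromosome and are abundant in fetal tissues.

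The table listed 427 miRNAs. Of these, 317 had enough counts in the 20 ovary libraries to be tested, 110 did not, and 11 of the latter had no count in the 10 libraries compared. Totals ran from 7539848 to 8405361 counts at day 1 and from 5889079 to 6897802 at month 4. Day 1 libraries held 383 ± 10.4 detected miRNAs and month 4 libraries 356 ± 12.7 (SD, n = 5 each), and the number detected was lower in the shallower group. Levels are given in CPM, counts scaled to the library total times its TMM factor, a normalization that limits the weight of a few abundant miRNAs. A floor of 3 counts stood between 0.319 and 0.839 CPM at day 1 and between 0.369 and 0.658 CPM at month 4. The miRNA miR-202-5p, which is enriched in gonads, was found in all 10 libraries. Its lowest value was 5.87 CPM, in the third day 1 library. No uterus level was set beside these values, so the presence of miR-202-5p alone does not check the labelled tissue.

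A pair of libraries stood apart from their groups. In the third day 1 library, the smooth muscle miRNA miR-143-3p took 73.3% of all counts, against 8.84% to 15.7% in the other 4. Its 10 most abundant miRNAs held 91.0% of its counts. In the fifth month 4 library miR-143-3p took 18.2%, against 5.15% to 8.14% in the others. That library also had the lowest mean rank correlation with its own group, 0.905. No library was a copy of another.

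By month 4 the ovary held more let-7a, let-7b and let-7d, more miR-125a and miR-125b, more of the miR-221 and miR-222 pair and more of the lymphocyte miRNA miR-150. It held less of the X-linked miR-424/miR-542/miR-450 cluster, less of many DLK1-DIO3 miRNAs, and less miR-202-5p, miR-30e-5p and miR-148a-3p. Of 317 miRNAs tested, 169 passed the threshold (53.3%), 80 of them higher at month 4 (25.2%) and 89 lower (28.1%). The threshold was an adjusted p under 0.05 in the quasi-likelihood test of edgeR. Changes of at least 2-fold were found for 70 of the higher and 84 of the lower miRNAs, and changes of at least 8-fold for 21. In 110 miRNAs (34.7%) the 5 libraries of each age did not overlap, and 109 of these were called. The median change of all 317 was -0.07 on the log2 scale. Scaling by library totals alone moved this median to 0.27 and gave 77 higher and 68 lower calls. Without both libraries that stood apart, 86 miRNAs were higher and 105 lower.

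The largest rise was that of let-7b-3p, the minor strand of the let-7b hairpin. In the order of library numbers it stood at 7.45, 14.4, 25.7, 13.4 and 11 CPM at day 1 and at 186, 542, 157, 257 and 113 CPM at month 4. Every month 4 library lay above every day 1 library. The log2 change was 4.13 ± 0.73 (SE), with an adjusted p of 0.000152. It was 3.53 without the second month 4 library, the highest. The main strand let-7b-5p rose with it, from 12885, 8018, 2905, 8439.7 and 8022 CPM to 57038, 97054, 40103, 48644 and 16916 CPM. Its groups did not overlap either, although the fifth month 4 library came close to the highest newborn value. The change was 2.69 ± 0.59, a 6.45-fold rise with an adjusted p of 0.000897. The minor strand let-7d-3p rose by the same size, 2.69 ± 0.41, from a mean of 56.4 ± 15 CPM to 363 ± 170.4 CPM (SD, n = 5 each).

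**Figure D1:**
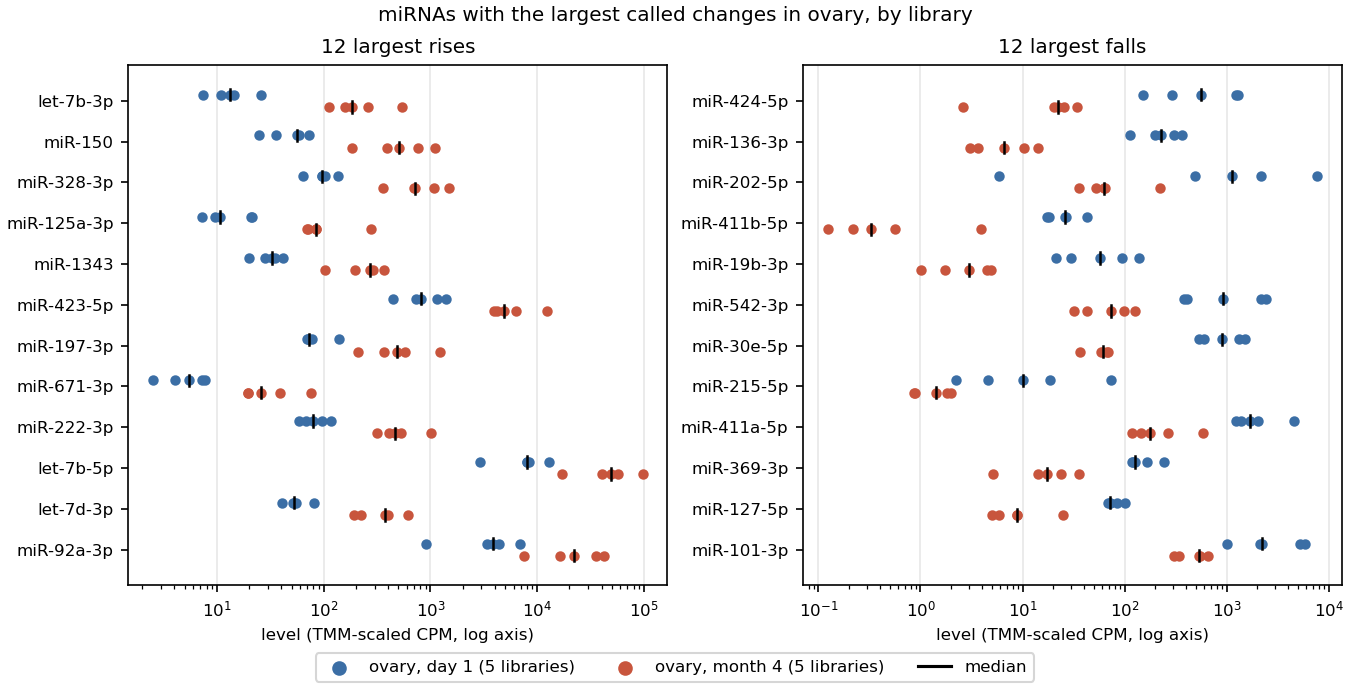
The 12 largest called rises (left) and falls (right) with a mean of at least 10 CPM. Each point is a library, blue for day 1 and red for month 4, on a log axis of TMM-scaled CPM; black bars are medians. The ages are separate in 23 of the 24 miRNAs, and in miR-202-5p a day 1 library at 5.87 CPM lies below all month 4 libraries.

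Next among the rises was miR-150, a miRNA of mature lymphocytes. Newborn ovaries held 58.1, 56.2, 72.1, 35.6 and 24.9 CPM of it, and 4-month ovaries 390.4, 1114, 504, 757 and 184 CPM. All 5 older libraries were above all newborn ones, and they differed among themselves far more than the newborn ones did. The change was 3.58 ± 0.59 (adjusted p 0.000106), or 11.9-fold. A change of this kind in whole tissue cannot tell more cells of a type apart from more RNA per cell. Other leukocyte miRNAs did not move as a group. The inflammatory miR-155-5p rose by 1.61 ± 0.46 with overlapping libraries, while miR-146a fell by 1.88 ± 0.39 and miR-146b-5p by 1.2 ± 0.43. The call of miR-146b-5p was lost without the first, the second or the fifth day 1 library and without the second or the fourth month 4 library. The myeloid miR-223-3p stood at -0.08 ± 0.51 and was not called.

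The miR-221 and miR-222 hairpins lie side by side and are known to target the cell cycle inhibitor CDKN1B and the receptor KIT. For miR-222-3p the day 1 libraries read 97.3, 58.6, 68.8, 118 and 78.8 CPM, and the month 4 libraries 315, 534, 411, 1019.7 and 467 CPM. The newborn values fell in a narrow range well below the older ones. The change was 2.70 ± 0.36, with an adjusted p of 4.02e-05, among the lowest of the comparison. Its neighbour miR-221-3p went from 224, 139, 117, 224 and 189 CPM to 588, 552, 512, 1253 and 575 CPM, a change of 1.96 ± 0.41. The fourth month 4 library was the highest for both. The minor strand miR-221-5p rose by 1.5, so all 3 tested products of this locus were higher at month 4, beside 25.2% of all tested.

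Both strands of miR-423 rose. In newborn ovaries miR-423-5p was at 733, 822, 448, 1386 and 1153 CPM, and at month 4 it was at 4903, 12276, 4192, 6387 and 3963 CPM. The second month 4 library was the highest and all 5 lay above the newborn range. The change was 2.80 ± 0.37 (adjusted p 4.02e-05), while the 3p strand rose by 1.54 ± 0.32. Further large rises with no overlap were those of miR-328-3p at 3.13 ± 0.45, miR-125a-3p at 3.07 ± 0.49 and miR-1343 at 2.97 ± 0.44. The list was completed by miR-197-3p at 2.75 ± 0.48, miR-671-3p at 2.73 ± 0.44 and miR-92a-3p at 2.67 ± 0.46. The second month 4 library held the highest value of each of them. Without that library miR-125a-3p was at 2.45 and miR-197-3p at 2.16, and both were still called.

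The deepest fall among miRNAs above 10 CPM was that of miR-424-5p, which shares its seed with the cell cycle regulators miR-15 and miR-16. It was at 293, 563, 151, 1284 and 1242 CPM in newborn ovaries and at 34.4, 2.63, 25.2, 22.0 and 20.2 CPM in 4-month ovaries. The lowest newborn library was the third, and it was still above every older one. The change was -5.08 ± 0.77, a 33.7-fold fall with an adjusted p of 6.29e-05. From the same X-linked cluster, miR-542-3p went from 383, 927, 407, 2446 and 2194 CPM to 99.1, 32.2, 73.8, 43.2 and 128 CPM, a change of -4.08 ± 0.63. The fourth and the fifth newborn library were the highest for both. In this cluster 5 of 6 tested strands fell and none rose, beside 28.1% and 25.2% of all tested. Its median was -2.21, beside -0.07 for all tested. The exception, miR-424-3p, was at 0.97 ± 0.48 and not called by edgeR, but DESeq2 called it higher at 1.05 and so did edgeR, at 0.99, with the second and the fourth month 6 library left out of the fit. The members miR-450-5p, miR-450-3p and miR-542-5p fell by 2.0, 2.43 and 1.55.

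The strands of the gonad miRNA miR-202 gave unlike readings, a called fall of the 5p strand and no call of the 3p strand. In newborn ovaries miR-202-5p was at 489, 1141, 5.87, 7736 and 2151 CPM, and at month 4 at 62.3, 35.5, 52.1, 63.8 and 222 CPM. The third newborn library fell below all the older ones, so the groups overlapped, and the other 4 newborn libraries lay above them. The change was -4.72 ± 1.05 (adjusted p 0.000971), and -5.74 without both libraries that stood apart. Leaving out the fourth newborn library gave -3.43, which was still called. The 3p strand was at 6.92, 8.83, 0, 38.3 and 18.1 CPM at day 1 and at 58.2, 17.1, 20.8, 75.6 and 52.6 CPM at month 4. These ranges overlapped, and miR-202-3p at 1.63 ± 0.83 was not called, with an adjusted p of 0.104. It was called at 2.34 when the fourth newborn library was left out.

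Other granulosa cell miRNAs were called in both directions. Called higher were miR-320-3p at 2.38 ± 0.38 and miR-224-5p, which acts in TGF-beta signalling of granulosa cells, at 1.08 ± 0.35, both without overlap. The value for miR-21-5p, an anti-apoptotic miRNA of granulosa cells, was -2.23 ± 0.67. It was called, but without the third newborn library it was -1.39 and not called. Unlike these, miR-383 at 0.31 ± 0.66 was not called. Of the 6 tested members, 2 were higher, 2 lower and 2 not called, with a median of 0.69. With 6 members these shares lie near the 25.2% higher and 28.1% lower of all tested.

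In the let-7 family, 7 of 15 tested strands were higher at month 4 and 1 was lower, beside 25.2% and 28.1% of all miRNAs. The median change was 0.83. The summed share of the family ran from 3.05% to 24.2% of all counts at day 1 and from 25.6% to 36.1% at month 4, without overlap. The low end at day 1 was the third library, where miR-143-3p took most of the counts. For let-7a-5p the newborn libraries were at 33929.7, 21009.7, 6959, 19379 and 19549.9 CPM, and the older ones at 99477, 135457, 80808, 78839.7 and 40617 CPM. Each older library was above each newborn one, and the change was 2.11 ± 0.52 (adjusted p 0.00233). In the abundant let-7f-5p, let-7g-5p and let-7i-5p, changes of 0.37, 0.15 and -0.42 were not called. The call of let-7c-5p at 1.70 was lost without the third, the fourth or the fifth newborn library and without the second month 4 library. The call of let-7e-5p at 1.44 was lost without the third, the fourth or the fifth newborn library and without the first, the second or the third month 4 library. The strand called lower was let-7i-3p at -1.48 ± 0.37. Without both libraries that stood apart 7 strands were higher and 4 lower, the latter with let-7c-3p at -1.02, let-7i-5p at -0.78 and miR-98-5p at -0.92 beside let-7i-3p. In that setting let-7e-3p at 0.82 was called and let-7e-5p at 1.33 was not. How reads that match several let-7 members were assigned is not given in the sources used here, so the split among them is uncertain.

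The miR-125 family, the vertebrate relatives of the worm timing gene lin-4, moved upward beside let-7. Newborn ovaries held 26545, 19327, 5928, 9969 and 15049 CPM of miR-125b-5p, and 4-month ovaries 74212, 72029, 61255, 35092 and 16304 CPM. The fifth month 4 library lay within the newborn range and the other 4 above it. The change was 1.75 ± 0.43 (adjusted p 0.00199). Also higher were miR-125a-5p at 2.39 ± 0.53, miR-125b-3p at 1.25 ± 0.27 and miR-99b-5p at 0.91 ± 0.27. In the miR-99/miR-100 and miR-125 families together, 6 of 9 tested strands were higher and 1, miR-99a-3p, was lower, beside 25.2% and 28.1% of all tested, with a median of 0.91. Values of 0.28 for miR-99a-5p and -0.41 for miR-100-5p were not called.

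**Figure D2:**
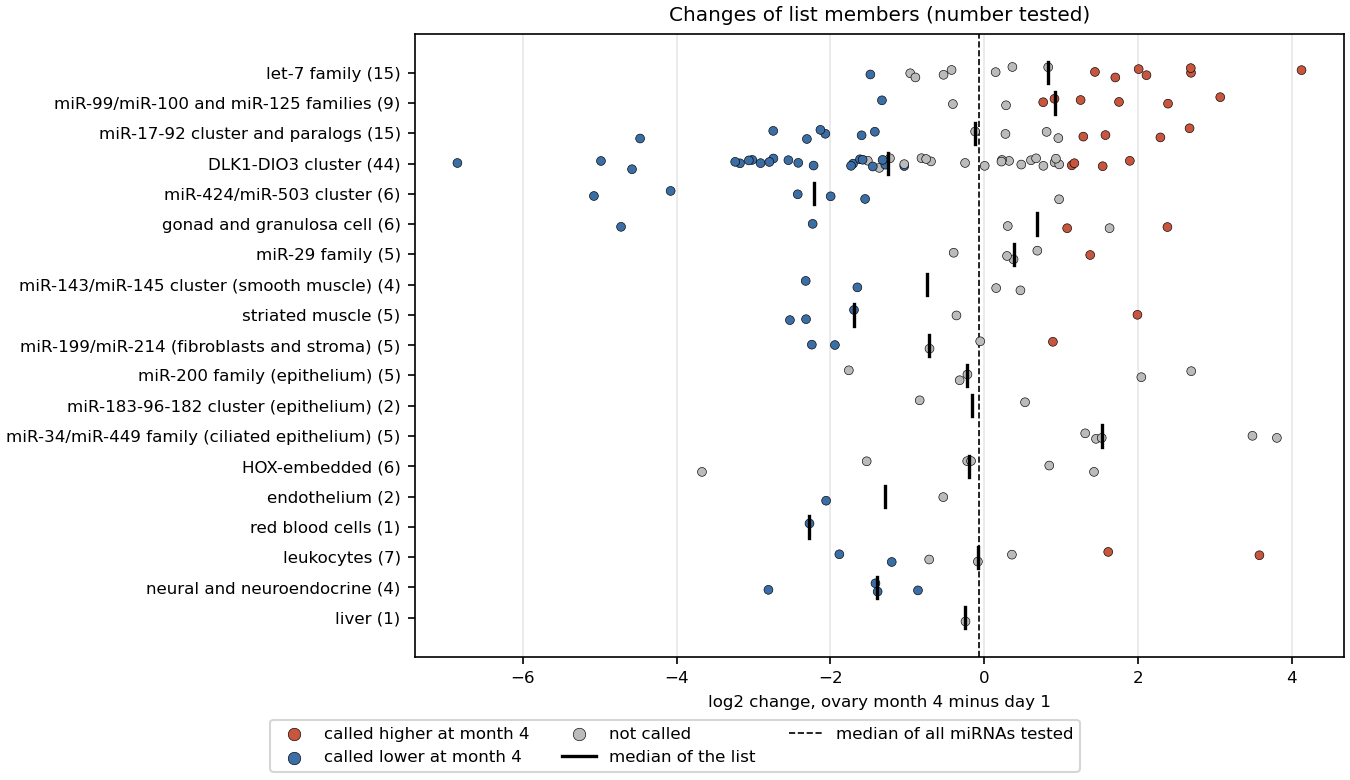
Log2 change from day 1 to month 4 (horizontal axis) of each tested member of 19 lists, with the number tested in brackets. Points are red where called higher, blue where called lower and grey where not called; black bars are list medians and the dashed line is the median of all 317 tested, -0.07. The DLK1-DIO3 and miR-424 lists reach furthest to the left.

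The DLK1-DIO3 cluster gave the largest group of falls. Of 44 tested strands, 21 were lower and 4 higher, against 28.1% and 25.2% of all tested, and the median was -1.26. Without both libraries that stood apart 27 were lower, 2 were higher and the median was -1.60. With the replicate block 24 were lower and 5 higher. Scaling by library totals alone gave 15 lower, 4 higher and a median of -1.04. Under the stricter filter, 16 of 35 tested strands were lower, 5 were higher and the median was -0.86. Fitting only the 10 libraries compared gave 16 lower of 43. Leaving out single libraries gave 18 to 28 lower. The call of miR-494 was lost in 8 of these fits and that of miR-379-3p in 6. In the fifth month 4 library the summed level of the cluster was 49214 CPM, against 10996 to 23388 CPM in the other month 4 libraries and 14443 to 24209 CPM at day 1. Whether that library differed in its cells was not tested. All 42 list hairpins with a counted miRNA lay on the chromosome of miR-379 in the goat RefSeq annotation (assembly ARS1.2).

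Both strands of miR-136 fell. In newborn ovaries miR-136-3p was at 113, 225, 367, 199 and 303 CPM, and in 4-month ovaries at 6.64, 3.07, 10.4, 3.69 and 14.2 CPM. There was a wide gap between the groups, and the change was -4.98 ± 0.76 (adjusted p 6.29e-05). Its partner miR-136-5p was at 4.68, 5.5, 15.4, 6.30 and 12.1 CPM at day 1, was listed at 0 in 4 month 4 libraries, and was at 0.255 CPM in the fifth. That is under the floor of 3 counts, so no fold is given; it was called lower with an adjusted p of 7.84e-05.

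The miR-411 hairpins fell as well. The level of miR-411a-5p went from 1387, 1703, 4539.5, 1228 and 2030.3 CPM to 145, 178, 269, 119 and 592 CPM, and the change was -3.06 ± 0.53. The highest value in each group belonged to the library that stood apart there. Its near copy miR-411b-5p went from 17.5, 26.8, 42.5, 18.1 and 25.8 CPM to 0.565, 0.219, 0.329, 0.123 and 3.96 CPM. Only the fifth month 4 library rose clearly above the floor, so the change of -4.58 ± 0.82 is poorly bounded. The paralogs are close in name and may share reads, so their split is uncertain.

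Further falls without overlap in this domain were those of miR-369-3p at -3.02 ± 0.46 and miR-127-5p at -2.91 ± 0.47. Others were miR-376c-3p at -3.18 ± 0.43, miR-376e-3p at -3.24 ± 0.59 and miR-382-3p at -2.22 ± 0.44. For miR-127-5p the newborn libraries were at 69.4, 72.5, 84.7, 72.0 and 102 CPM and the older ones at 8.75, 5.92, 8.73, 5.05 and 24.6 CPM. The newborn values hardly differed, and the fifth month 4 library was the highest of its group. Without the fifth month 4 library the falls were deeper, at -3.53 for miR-127-5p, -3.69 for miR-411a-5p, -3.82 for miR-376e-3p and -2.99 for miR-382-3p. The fall of miR-379-5p, -1.45 ± 0.48, became -2.48 without the fifth month 4 library and was lost without the second.

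Not every strand of the domain fell. The dominant strand miR-127-3p, at 9025 ± 3381 CPM in newborn ovaries, was at 0.92 ± 0.39 and missed the threshold with an adjusted p of 0.0545. It was called at 1.11 without the fifth newborn library, at 1.13, 1.04 and 1.10 without the first, the third and the fourth month 4 library, at 0.96 by DESeq2 and at 0.91 with the replicate block, and it was at 0.33 and not called without both libraries that stood apart. Called higher were miR-323b at 1.89, miR-485-3p at 1.54, miR-433 at 1.14 and the 5p strand miR-485-5p at 1.17. Without the fifth month 4 library miR-323b was at 0.76, miR-485-3p at 1.23 and miR-433 at 0.74, none of them called. Leaving out the fourth newborn library also ended the calls of miR-485-3p at 1.26 and miR-433 at 1.01, and the first newborn library that of miR-485-3p at 1.45. The second month 4 library did so for miR-485-3p at 1.27 and miR-485-5p at 0.71. Between the first and the last list hairpins lay 3 others that the list did not hold. Of these, miR-3959-3p at -3.20 and miR-3959-5p at -2.43 were lower. Also called lower were miR-3958-3p at -1.47 and miR-3955-5p at -1.23. Without the third newborn library they were at -0.90 and -0.98 and not called. Leaving out the first, the second, the third or the fourth month 4 library also ended the call of miR-3958-3p. That of miR-3955-5p was lost without the first, the second or the fifth newborn library and without the first, the third or the fourth month 4 library.

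The miR-17-92 cluster and its paralogs, a set known for driving proliferation, moved both ways. Of 15 tested strands 4 were higher and 7 lower, beside 25.2% and 28.1% of all tested, so the higher share lies near the background. The median was -0.12 and became 0.12 under scaling by library totals. The member miR-92a-3p, of the miR-25 seed family, was at 3843, 3392, 912, 6923 and 4356 CPM in newborn ovaries and at 35224, 42496, 16434, 22025 and 7472 CPM at month 4. Its groups did not overlap, although the fifth month 4 library came near the top of the newborn range. Its cluster neighbour miR-19b-3p went from 21.4, 29.7, 93.6, 138 and 57.7 CPM to 4.52, 1.75, 4.94, 2.95 and 1.02 CPM. Every older library was below every newborn one, with a change of -4.48 ± 0.81 (adjusted p 0.000186). How reads shared with paralogs were assigned is not given, so the transcript that these miRNAs came from is uncertain. Also lower were miR-20a-5p at -2.31 ± 0.66 and miR-17-5p at -2.13 ± 0.65. Without the fourth newborn library these were at -1.56 and -1.48, still called.

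Neighbouring hairpins could be read more widely with the RefSeq annotation, joining hairpins at most 10000 bases apart. Of 30 neighbour clusters with at least 2 tested strands, 17 had calls in a single direction, 8 in both directions and 5 had none. A cluster with a single call counts as a single direction by necessity, and 53.3% of all miRNAs tested were called. Whether neighbours moved together more than other miRNAs was not tested. The pair miR-215 and miR-194, known from kidney and intestine, fell together. The level of miR-215-5p was 2.23, 4.59, 73.5, 10.1 and 18.5 CPM at day 1 and 1.98, 0.877, 1.81, 0.862 and 1.40 CPM at month 4. The first newborn library was barely above the older ones and the third far above the rest; the change was -3.94 ± 0.78, and -2.63 without the third library. For miR-194 the change was -1.69 ± 0.30. Strands of miR-30b and miR-30d, and of miR-30c and miR-30e, were called in both directions.

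Among the 10 most abundant miRNAs, 3 rose and 2 fell, beside 25.2% higher and 28.1% lower of all tested. With 10 members these counts lie near those shares. The abundant miR-148a-3p, which targets the DNA methyltransferase DNMT1, was at 107412, 179911, 97493, 197936 and 242547 CPM in newborn ovaries. At month 4 it was at 20681, 40495, 40461, 18556 and 41656 CPM. There was no overlap, and the change was -2.35 ± 0.52 (adjusted p 0.000926), a 5.10-fold fall. The share of miR-143-3p was 8.84%, 15.7%, 73.3%, 14.6% and 15.1% at day 1 and 5.15%, 8.14%, 7.25%, 5.85% and 18.2% at month 4. The third newborn and the fifth month 4 library were far above their groups, and the groups overlapped. The fitted change of miR-143-3p was -2.32 ± 0.68 and was called, but it was -0.60 and not called without the third newborn library. It was also not called by DESeq2 at -2.41 or with the replicate block at -1.64. Its minor strand miR-143-5p was at 137, 204, 583, 260.2 and 276 CPM at day 1 and at 57.3, 128, 73.3, 98.9 and 108 CPM at month 4. The groups did not overlap, and the change of -1.65 ± 0.38 (adjusted p 0.00134) was still called at -1.22 without the third newborn library. The rises were those of let-7a-5p, let-7c-5p and miR-125b-5p, given above. In miR-99a-5p, miR-10b-5p, miR-26a-5p, let-7f-5p and let-7i-5p the change lay between -0.42 and 0.37 and was not called.

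Among the other large falls, miR-30e-5p is a widely expressed strand. Newborn ovaries held 531, 604, 1508, 1330.3 and 901 CPM of it, and 4-month ovaries 61.6, 36.6, 59.1, 66.8 and 69.2 CPM. The older libraries agreed closely and lay far below the newborn ones, with a change of -4.05 ± 0.71 (adjusted p 0.000152). The fall of miR-101-3p, a known repressor of the chromatin enzyme EZH2, was from 1016, 2204, 2098, 5291 and 5914 CPM to 547, 653, 536, 341 and 304 CPM. Again no older library reached the newborn range, and the change was -2.80 ± 0.74 (adjusted p 0.00393).

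Markers of other cell types gave mixed counts. Both tested strands of miR-9, a neural miRNA, and both of miR-7, a neuroendocrine miRNA, were lower, beside 28.1% of all tested. The changes were -1.39 ± 0.30 for miR-9-5p and -1.41 ± 0.46 for miR-7-5p. The call of miR-7-3p, at -0.86, was lost without the fourth or the fifth newborn library and without the first, the second or the fifth month 4 library. The stromal miR-199b-5p fell by 2.24 ± 0.31 and miR-199a-5p by 1.94 ± 0.38, while miR-214-3p, from the hairpin next to miR-199a, rose by 0.89 ± 0.31. That rise was lost without the first month 4 library. The strand miR-199a-3p, at -0.71, was not called, but it was called at -0.81 without both libraries that stood apart and at -0.91 without the third newborn library. Of 5 tested strands of striated muscle miRNAs 3 were lower and 1 higher, beside 28.1% and 25.2% of all tested. The falls were those of miR-1 at -2.32 ± 0.69, miR-499-5p at -2.53 ± 0.49 and miR-133a-5p at -1.69, and miR-206 was higher at 1.99 ± 0.65. The call of miR-133a-5p was lost in 6 of the fits with single libraries left out. Without the third newborn library miR-1 was at -1.58, still called. Of the smooth muscle pair, miR-145-5p was at 0.47 ± 0.34 and not called. The red cell miRNA miR-451-5p, at 521 CPM in the third newborn library against 34.3 to 87.0 CPM in the others, was lower by -2.28 ± 0.68. Without that library it was at -0.77 and not called. The endothelial miR-126-3p was at -0.53 ± 0.41 and not called, and at -1.33 and called without the fifth month 4 library, where it reached 16731 CPM against 3116 to 4538 CPM in the other 4. Its partner miR-126-5p was called lower at -2.06 ± 0.43 (adjusted p 0.000612), from 385 ± 146 CPM to 92.6 ± 70.8 CPM (SD, n = 5 each) with overlapping libraries, and was at -2.67 without the fifth month 4 library. Of the collagen repressors of the miR-29 family, 1 of 5 tested strands was called, beside 53.3% of all tested. That strand was miR-29b-5p at 1.38. Its call was lost without the second, the fourth or the fifth newborn library. It was also lost without the first, the second or the fourth month 4 library. The liver miRNA miR-122, at -0.25, was not called.

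Epithelial miRNAs split the libraries of both ages. The level of miR-200b was 2704, 1089, 7074, 239 and 372 CPM in newborn ovaries and 4044, 198, 13340.1, 29568 and 140.4 CPM in 4-month ovaries. In each age some libraries were high and others low, and the ranges overlapped fully at the lower end. For miR-34c-5p, of ciliated epithelium, the values were 1479, 909, 75.5, 24.9 and 24.2 CPM at day 1 and 401, 3.73, 1236, 4599.8 and 3.32 CPM at month 4. The second and the fifth month 4 library were lowest for both. None of the 5 tested members of the miR-200 family, of 5 in the miR-34/miR-449 family or of 2 in the miR-183 cluster was called by edgeR. Of all miRNAs tested 53.3% were called. None of these members had an unadjusted p under 0.05. DESeq2 called miR-34b-3p at 3.77. The medians were -0.22, 1.53 and -0.15. The direction of miR-34c-5p and miR-449a-5p depended on the fourth month 4 library, without which they were at -0.41 and -1.61. What these differences between libraries contributed to other changes was not tested.

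The HOX-embedded miRNAs lie among the genes that set position along the body axis. By edgeR none of their 6 tested strands was called, beside 53.3% of all tested, and none had an unadjusted p under 0.05. DESeq2 called miR-196b at -3.55. Newborn ovaries held 3.62, 371, 189.8, 324 and 575 CPM of miR-196b, and 4-month ovaries 1.27, 109.6, 0.824, 1.35 and 2.43 CPM. The first newborn library was close to the low month 4 libraries. The second month 4 library lay far above the rest of its group and below the other 4 newborn libraries. The change was -3.67 ± 1.78 with an adjusted p of 0.0883. Without the second month 4 library miR-196b was at -7.62 and miR-196a at -4.59, both called.

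**Figure D3:**
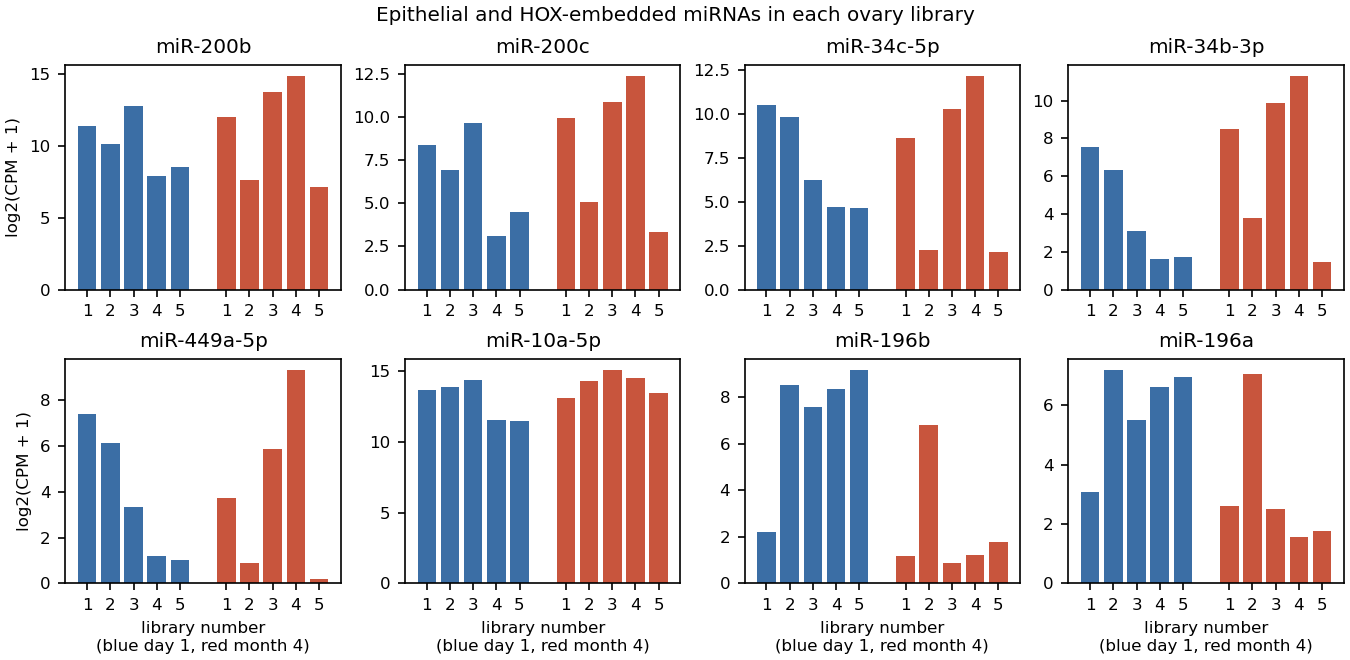
Levels of 5 epithelial miRNAs (miR-200b, miR-200c, miR-34c-5p, miR-34b-3p, miR-449a-5p) and 3 HOX-embedded miRNAs (miR-10a-5p, miR-196b, miR-196a) as bars of log2(CPM + 1), 1 bar for each library, blue for day 1 and red for month 4. The second and the fifth month 4 library are low in the epithelial panels, and the second is the only month 4 library that is high in miR-196b and miR-196a.

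The strands of a hairpin did not always change alike. For each of 99 hairpins with both strands tested, the ratio of 5p to 3p counts (1 added to each) was compared in an exact two-sided permutation test of 5 against 5 libraries. The smallest p this design allows is 0.00794. After adjustment over the 99 hairpins 43 shifted (43.4%), 17 toward the 5p strand and 26 toward the 3p strand. The ratio at a given age also carries how well each strand is captured in a library, so the values below concern its change. Both strands were called in 33 hairpins in the comparison of levels. They moved the same way in 29 and opposite ways in miR-106b, miR-28, miR-30b and miR-455.

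The widest shift was that of miR-424. Its log2 ratio of 5p to 3p was 0.35, 2.35, 2.16, 2.50 and 2.76 in the newborn libraries and -3.74, -6.64, -3.15, -3.82 and -3.66 in the older ones. The 5p strand was in excess in every newborn library and the 3p strand in every older one. The mean went from 2.02 to -4.20, a difference of -6.23 (exact permutation p 0.00794, adjusted p 0.0224). For miR-202 the ratio was 6.12, 7.0, 4.46, 7.65 and 6.88 at day 1 and 0.10, 1.04, 1.32, -0.24 and 2.08 at month 4. In the third newborn library the 3p strand had no count, so its ratio is set by the added count. The shift was -5.56, with the same permutation p.

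Opposite moves of the strands are shown by miR-455 and miR-30b. The level of miR-455-5p fell by 2.24 ± 0.48 while miR-455-3p rose by 1.22 ± 0.41. The log2 ratio was 0.31, 0.95, 2.64, 1.09 and 1.13 in newborn libraries and -3.11, -2.48, -2.19, -2.47 and -1.64 in older ones, so the strand in excess changed. For miR-30b the 5p strand fell by 1.69 ± 0.38 and the 3p strand rose by 2.02 ± 0.39, and the 5p strand was in excess at both ages. In miR-106b the values were -2.74 ± 0.56 and 1.29 ± 0.38. In miR-28 they were -0.53 ± 0.22 and 1.83 ± 0.28, and the fall of miR-28-5p was lost under most alternatives.

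The strand in excess by the group mean changed in 9 hairpins, and in 8 of them the shift was called. These 8 were miR-105b, miR-181c, miR-30e, miR-324, miR-382, miR-423, miR-424 and miR-455. In some of them single libraries lay on the other side of 0. For miR-324 the month 4 ratios were 0.54, -3.91, 0.29, -0.44 and 0.85, so the mean rests largely on the second library. The third and the fourth month 4 library stayed below 0 in miR-181c, at -0.585 and -0.30. Already above 0 at day 1 were the first and the third library in miR-382, at 0.09 and 0.39, and the fifth in miR-423, at 0.32. For miR-30e the ratio went from 1.08 to -2.56 as the 5p strand fell and the 3p strand, at -0.42 ± 0.27, was not called. In the DLK1-DIO3 hairpin miR-382 the ratio went the other way, from -0.44 to 2.20, with the 3p strand lower and the 5p strand at 0.22 ± 0.48 and not called. For miR-423, where both strands rose, the ratio went from -0.12 to 1.05. Neither strand of miR-105b was called in the comparison of levels, at 1.01 for the 5p and -1.39 for the 3p strand. Its newborn ratios were -0.32, -1.585, 0, -1.585 and -2.32. The lower the counts, the more the added 1 weighs in such ratios. With 4 libraries a group, leaving out both that stood apart, none of the 99 hairpins was called. The exact permutation test then gave 50 hairpins at an unadjusted p under 0.05, and the smallest adjusted p was 0.0566, since that design cannot go below a p of 0.0286.

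**Figure D4:**
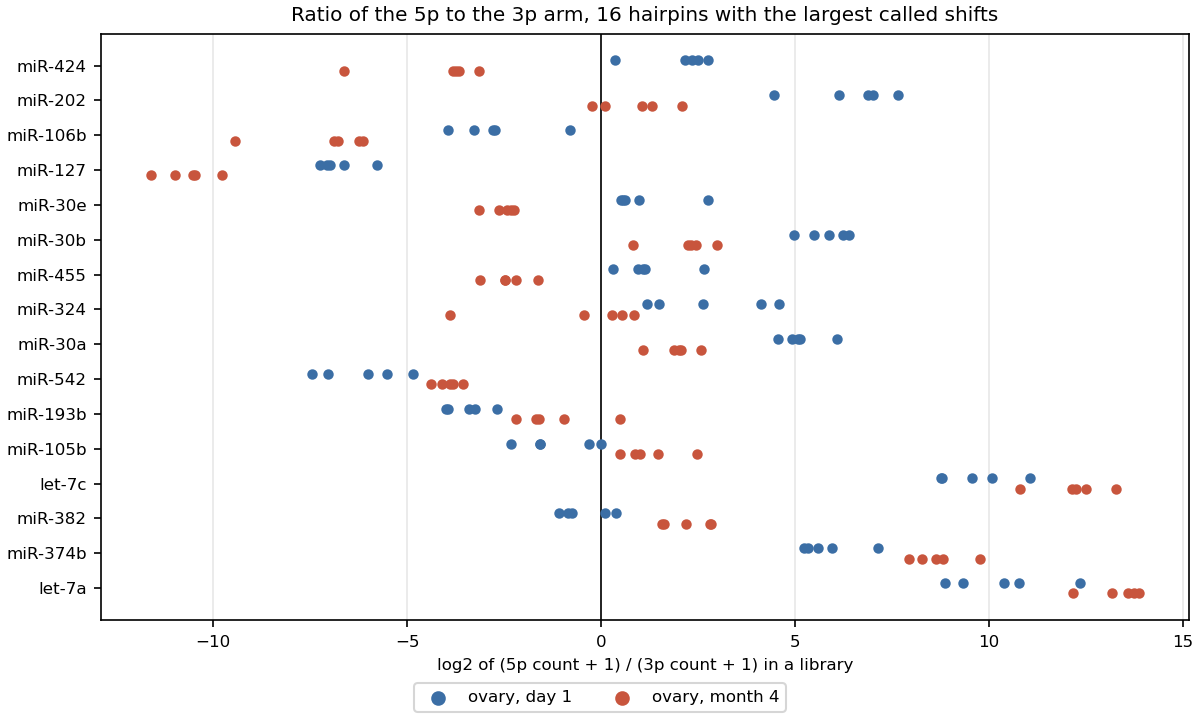
Log2 ratio of 5p to 3p counts (1 added to each) of 16 hairpins in each library. Blue is day 1 and red is month 4. The hairpins are those with the 9 largest called shifts toward the 3p strand and the 7 largest toward the 5p strand. Points right of 0 have more 5p than 3p counts. For miR-424, miR-30e and miR-455 all blue points lie right of 0 and all red points left of it.

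The values at the other ages are set beside these, and all of them share the same day 1 libraries. At months 2, 4 and 6 the change of let-7b-3p from day 1 was 2.60, 4.13 and 5.74, and that of miR-150 was 2.34, 3.58 and 3.21. For miR-222-3p the values were 1.95, 2.70 and 2.67. Among the falls, miR-424-5p was at -3.96, -5.08 and -4.36, and miR-202-5p at -4.74, -4.72 and -4.87. In these miRNAs all 3 later ages lay on the same side of the newborn level. For miR-101-3p they were -3.15, -2.80 and -0.22, and for miR-30e-5p -3.34, -4.05 and -2.0. When month 4 was tested against month 2 directly by edgeR, 0 of 317 miRNAs were called (0%). The smallest adjusted p was 0.3142, and 31 miRNAs had an unadjusted p under 0.05.

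**Figure D5:**
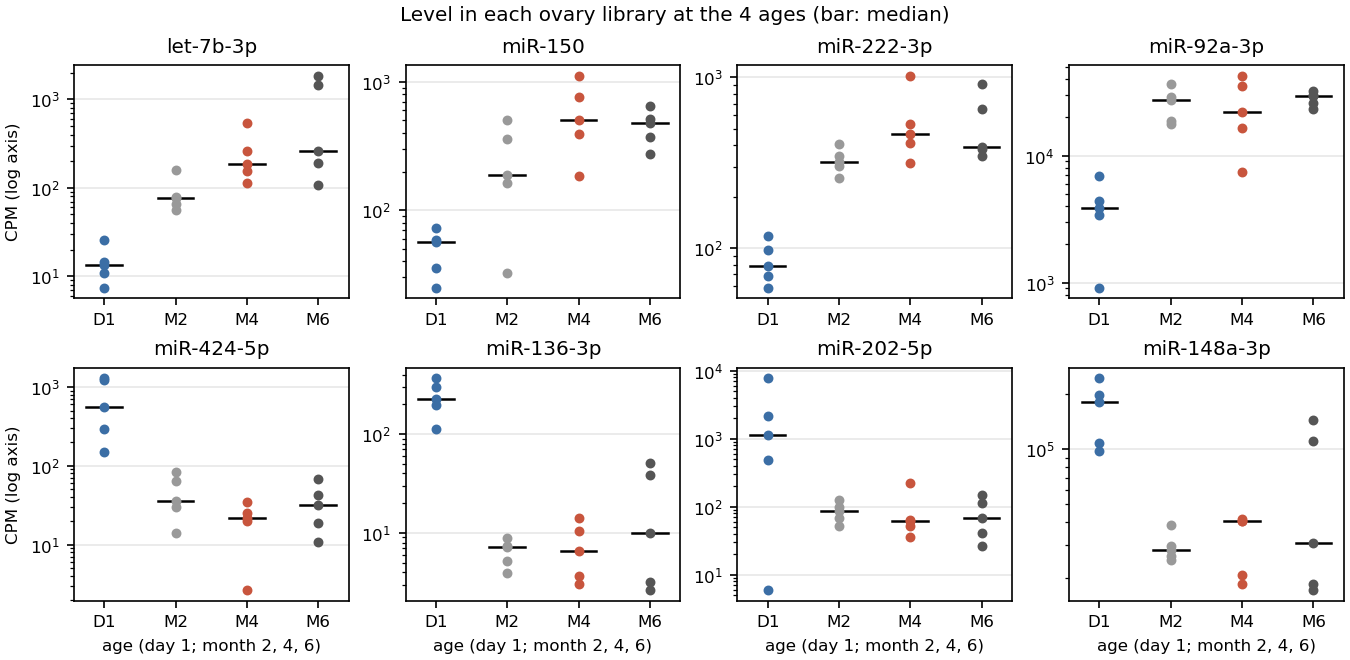
Levels (CPM, log axis) of 8 miRNAs in each ovary library at day 1 and months 2, 4 and 6 (D1, M2, M4, M6), with bars at the medians. In let-7b-3p, miR-150, miR-222-3p and miR-92a-3p the month 4 points lie above those of day 1, and in miR-424-5p, miR-136-3p and miR-148a-3p below them.

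Whether the change by month 4 differed in the uterus was tested with all 40 libraries. Of 350 miRNAs, 0 differed between the tissues by edgeR (0%), and 29 had an unadjusted p under 0.05. Whether ovary and uterus libraries of 1 age that carry the same number came from 1 goat is not stated in the labels. Such libraries deviated together with r from -0.395 to 0.353, over 0.1 in 8 of 20 pairs. With these pairs as a block 0 of 350 miRNAs were called and 14 had an unadjusted p under 0.05. DESeq2 called 1, miR-215-5p, with a difference of 4.33 and an adjusted p of 0.00857 by its Wald test. In the edgeR fit of 40 libraries without the block, miR-215-5p changed by -4.09 in ovary and 0.43 in uterus. The difference by edgeR was 4.52 ± 1.14, with an adjusted p of 0.1132. For miR-221-3p the changes were 1.97 in ovary and 0.54 in uterus, and for miR-202-5p -4.64 and -1.58. Neither difference was called. The change of let-7a-5p was 2.13 in ovary and 2.19 in uterus, and that of miR-150 was 3.47 and 3.82.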

How the data were processed

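Small RNA was sequenced from 40 libraries of goat ovary and uterus, and 10 ovary libraries were compared here. The deposited table holds raw read counts per mature miRNA, made by the authors; all values are whole numbers and were not normalized. RSEM 1.3.0, Bowtie 1.0.1 and cutadapt 1.16 are listed in the submitters' processing notes, which give them no order. Genome build, miRNA annotation and the handling of reads that match several miRNAs are not given in the sources used here. Species prefixes were left out of the names.

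Counts were analysed with edgeR 4.0.16 in R 4.3.3. All 20 ovary libraries were fitted with age as the factor, since the 4 ages share an estimate of spread (common biological coefficient of variation 0.624). The steps were filterByExpr, TMM scaling, the quasi-likelihood test and Benjamini-Hochberg adjustment over all miRNAs tested, with calls at an adjusted p under 0.05. The standard error is the absolute log2 change divided by the square root of F. Levels (CPM) are counts scaled to the library total times its TMM factor; shares in percent are of raw counts. In the third day 1 library that factor was 0.445, so its miR-143-3p is given as a share. The tissue difference is an interaction contrast over 40 libraries. Depth ran from 5889079 to 8405361 counts in the 10 libraries, and floors cover counting error only.

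Named were the 12 largest rises and falls called at a mean level over the 10 libraries of 10 CPM or more, members of the 20 lists, and the 10 most abundant miRNAs. Members and lists were chosen with earlier results of these data known; single values outside the rule (strand pairs, neighbours) were picked after they were seen. The pluripotency list had no member in the table. Same-numbered libraries of both ages did not pair, by the check in the closing section. DESeq2 1.42.0, other scalings, filters, a replicate block and left-out libraries were alternatives. The steps were tested on simulated data. GC content was not analysed.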

Additional observations from a re-analysis of the deposited data

Results flagged for a closer look

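In 34 named or abundant miRNAs each age was checked for a library far from the rest, 68 groups of 5 in all. A library was set apart where its gap to the nearest other, divided by the range, was above 0.71. This limit sets apart about 1 in 20 groups of independent, normally distributed values. Whether CPM levels follow that distribution was not tested, and the groups share the same 10 libraries. The 10 groups found can therefore not be set against that rate.

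The third day 1 library accounted for 5 of them. It held 22653 CPM of let-7i-5p, against 47718 to 55498 CPM in the other 4. Its scaled level of miR-143-3p was 1645900 CPM, a value that exceeds the scale because its TMM factor was 0.445, against 76527 to 161786 CPM. It was also high in miR-197-3p at 137.8 CPM against 69.6 to 78.0, in miR-215-5p at 73.5 CPM against 2.23 to 18.5, and in miR-411a-5p at 4539.5 CPM against 1228 to 2030.3. The fourth day 1 library held 7736 CPM of miR-202-5p, against 5.87 to 2151 CPM.

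The fifth month 4 library accounted for 3. It was high in miR-127-5p at 24.6 CPM against 5.05 to 8.75, in miR-202-5p at 222.2 CPM against 35.5 to 63.8, and in miR-411b-5p at 3.96 CPM against 0.123 to 0.565. The second month 4 library held 274.5 CPM of miR-125a-3p, against 70.2 to 84.4 CPM in the other 4.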

How the results depend on the processing

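Over the alternatives, 142 to 196 miRNAs were called against 169, no shared call changed sign, and the 24 largest changes were called wherever tested (23 of 24 under the stricter filter). Leaving out each library in turn gave 157 to 191 calls, 70 to 82 higher and 80 to 112 lower. With no low-count filter 75 were higher and 121 lower, and with the stricter filter 76 and 66. The replicate block gave 168 calls. Same-numbered libraries deviated together with r from -0.266 to 0.398, over 0.1 in 2 of 5 pairs, and 2 of 5 day 1 libraries correlated best with their own number, so the numbers were not taken as pairs. Reversed were miR-133a-3p (main -0.36), at 0.87 without both libraries that stood apart and 0.88 without the third day 1 library (-0.73 to 0.88 with single libraries left out), and miR-412-5p (main 0.61), at -0.96 without the fifth month 4 library (-0.96 to 1.02). The tissue difference gave 1 call by DESeq2 and 0 to 3 with single libraries left out. It gave 3 without the fifth newborn ovary library, which were miR-215-5p, miR-193a and miR-193b-3p. The latter pair held nearly the same counts in all 40 libraries and may share reads. Shifted hairpins were 35 to 44 with single libraries left out and 0 without both libraries that stood apart, where fewer libraries raise the smallest p; other settings gave 29 of 58 to 48 of 99. Omissions of 2 or 7 libraries and the block of ovary with uterus (0 calls) were chosen after seeing the data. Alternatives with GC content were not run, because no mature sequences were used here. Falls toward the floor of 3 counts are limited by depth.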
